A study of Mus musculus with 6 samples.

Results

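The interferon response and nucleic acid sensing genes studied here were 40 mouse genes, taken by symbol from a table of ChIP-seq read counts per gene. All 40 were found, among 24012 genes in the table. They were 4 sensors of foreign RNA or DNA, 7 transcription factors, 5 genes of the OAS family, 3 of the IFIT family, 4 GTPases of the MX and GBP families, 6 other effectors, 3 genes of ISG15 and its conjugation, 4 genes of the PARP and DTX3L group and 4 other interferon-induced genes.

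The study asked how the recruitment of DOT1L by the leukemia fusion protein MLL-AF9 relates to methylation of lysine 79 of histone H3. Progenitors from mouse bone marrow received a retrovirus carrying the fusion in 1 of 3 forms. The groups were MLL-AF9 with the change D546R (D546R), MLL-AF9 with the change D544R (D544R) and MLL-AF9 without either change (WT). All 3 groups thus carried the fusion, and cells without it are not analysed here. Chromatin was precipitated with an Abcam antibody to dimethylated (H3K79me2) or a Diagenode antibody to trimethylated lysine 79 (H3K79me3), which gave 6 libraries, 1 per genotype and mark. The labels describe the cells as primary progenitors and do not say how many mice or cultures each library came from. With 1 library per group there is no spread between cultures, so no difference was tested and intervals cover counting error only.

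Interferons are secreted when a cell senses foreign nucleic acid. They act through receptors, JAK kinases and a complex holding STAT2 and IRF9 that binds the interferon-stimulated response element (ISRE) in the promoters of many antiviral genes, while the gamma-activated site (GAS) serves interferon gamma. In blood cells many of these genes are low at rest and strongly induced by infection. DOT1L is the methyltransferase of lysine 79, and H3K79me2 and H3K79me3 lie over the bodies of transcribed genes, so the counts describe chromatin and not RNA.

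Promoters of 6 of these genes are printed. Those of 5 show the 2 elements through which interferon acts. That of Parp12, the gene with the lowest H3K79me3 ratio of D546R to WT among those with a mean count of at least 100, had no match to either. This was the case for 16 of the 32 genes of the list with a promoter in RefSeq. The share of all genes with neither was not counted, but only 3.39% of them held an ISRE and 7.89% a GAS. Each sequence is the 250 bases before the transcript start from RefSeq (build GRCm38.p6, read 5′ to 3′ along the gene's strand, while the count table uses mm9). Capitals mark the ISRE, searched as 2 copies of GAAA separated by 2 bases of any kind on either strand, and in Irf1 they mark the GAS, searched as TTC and GAA separated by 3 bases of any kind. Isg15 lies at chr4:156200819-156201068 (minus strand), Ifit1 at chr19:34640639-34640888 (plus strand), Stat2 at chr10:128270248-128270497 (plus strand), Irf2 at chr8:46739495-46739744 (plus strand), Irf1 at chr11:53769764-53770013 (plus strand) and Parp12 at chr6:39118350-39118599 (minus strand).
Isg15: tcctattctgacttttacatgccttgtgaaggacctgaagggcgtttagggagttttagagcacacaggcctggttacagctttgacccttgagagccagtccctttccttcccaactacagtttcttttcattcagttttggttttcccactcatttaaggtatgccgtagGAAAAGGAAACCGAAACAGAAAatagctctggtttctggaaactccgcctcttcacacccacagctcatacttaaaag
Ifit1: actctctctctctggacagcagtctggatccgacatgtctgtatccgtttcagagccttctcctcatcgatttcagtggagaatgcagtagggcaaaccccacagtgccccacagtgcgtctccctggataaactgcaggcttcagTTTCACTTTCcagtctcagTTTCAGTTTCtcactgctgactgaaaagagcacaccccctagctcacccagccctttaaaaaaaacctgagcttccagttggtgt
Stat2: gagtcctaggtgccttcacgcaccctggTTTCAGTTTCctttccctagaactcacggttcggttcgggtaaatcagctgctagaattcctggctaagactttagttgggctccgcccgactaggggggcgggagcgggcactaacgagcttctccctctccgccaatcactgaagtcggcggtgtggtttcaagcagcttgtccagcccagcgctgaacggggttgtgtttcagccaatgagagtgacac
Irf2: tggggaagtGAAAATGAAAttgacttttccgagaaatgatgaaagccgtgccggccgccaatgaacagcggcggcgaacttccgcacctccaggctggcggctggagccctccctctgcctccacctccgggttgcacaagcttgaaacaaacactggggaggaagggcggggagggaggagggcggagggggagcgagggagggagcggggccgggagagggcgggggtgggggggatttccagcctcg
Irf1: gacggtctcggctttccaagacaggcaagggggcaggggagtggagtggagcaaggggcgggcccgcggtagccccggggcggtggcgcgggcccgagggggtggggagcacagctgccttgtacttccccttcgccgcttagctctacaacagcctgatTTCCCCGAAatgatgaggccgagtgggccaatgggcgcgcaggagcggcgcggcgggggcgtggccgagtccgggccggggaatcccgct
Parp12: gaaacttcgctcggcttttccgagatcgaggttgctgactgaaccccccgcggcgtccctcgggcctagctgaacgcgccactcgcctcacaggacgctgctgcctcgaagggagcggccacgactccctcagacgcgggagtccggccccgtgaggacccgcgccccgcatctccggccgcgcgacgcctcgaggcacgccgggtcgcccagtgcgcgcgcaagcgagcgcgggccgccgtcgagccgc

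In Isg15, 3 overlapping ISRE matches began 78, 72 and 66 bases before the start. Ifit1 had 2 ISRE matches, 104 and 85 bases before the start, whereas the single ISRE matches of Stat2 and Irf2 lay farther out, at 222 and 241 bases. Irf2 also held 1 GAS match, which is not in capitals above. The GAS of Irf1 began 90 bases before the start. RefSeq gave a promoter for 32 of the 40 genes, of which 11 (34.4%) held an ISRE, against 3.39% of the 16720 genes of the table with a promoter. A GAS was found in 8 of the 32 (25%), against 7.89% of all genes. The 11 genes with an ISRE were Bst2, Gbp2, Gbp3, Ifit1, Ifit3, Irf2, Isg15, Oas1a, Oas3, Rsad2 and Stat2.

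Library totals were 3558329, 4287873 and 5993741 counts for H3K79me2 in D546R, D544R and WT, and 6652571, 5207395 and 5859821 for H3K79me3. Reads per independent fragment, estimated from the short regions with 0 counts, were 4.78, 3.26 and 4.05 in H3K79me2 and 18.6, 8.12 and 9.73 in H3K79me3. The estimate takes all short regions to have the same density per kb. Real differences in mark between genes raise it too, so it does not measure repeated reads alone. Fragment intervals below are 95% intervals with counts divided by the estimated reads per fragment. As the size of a change in this series, the fusion target Meis1 had 480, 6154 and 7372 counts of H3K79me2 in D546R, D544R and WT, a log2 ratio of -3.12 for D546R against WT. Hoxa9, another target, stood at -2.49. Markers of progenitors summed to 2.32, 2.36 and 2.37 times the median gene of the library in H3K79me2 and lymphoid markers to 0.769, 0.715 and 0.734 times. In H3K79me3 the progenitor markers summed to 1.46, 1.45 and 1.63 times and the lymphoid markers to 0.716, 1.03 and 0.869 times. Of the 8 progenitor markers, 6 had a log2 ratio of D546R to WT below 0 in H3K79me2 (median -0.12) and 5 in H3K79me3 (median -0.32). Among all genes, 9972 of 20308 and 10967 of 21777 were below 0. The 15 mature myeloid markers summed to 2.60, 1.60 and 1.46 times. In D546R against WT, 13 of the 15 were above 0 on the log2 scale, beside 50.9% of all genes. In H3K79me3 they summed to 1.75, 1.34 and 1.32 times, and 8 of 14 were above 0, beside 49.6%. The part of these markers in the values below was not tested. None of the 15 was at 0 counts in H3K79me2, whereas in H3K79me3 Ngp was at 0 in D546R and Camp and Lcn2 were at 0 in D544R. Fewer cells with a mark and less mark per cell cannot be told apart.

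The median level of the interferon genes was close to that of the median gene of the table and below that of housekeeping genes in both marks. Levels are counts per kb of the counted region divided by the same value of the median gene in that library. The median of the 40 genes in H3K79me2 was 1.13 in D546R, 1.02 in D544R and 1.05 in WT, while 20 housekeeping genes had medians of 5.18, 4.64 and 4.33. In H3K79me3 the medians were 0.923, 1.10 and 1.05 for the interferon genes and 2.28, 2.23 and 2.51 for the housekeeping genes. The 50 genes of other tissues taken as silent had medians of 0.691, 0.732 and 0.784 in H3K79me2 and 1.07, 0.854 and 0.719 in H3K79me3, so in H3K79me3 the silent genes lay above the interferon genes in D546R and below them in D544R and WT. Of the library totals, the 40 genes held 0.102%, 0.0919% and 0.0920% in H3K79me2 and 0.0981%, 0.0932% and 0.0811% in H3K79me3.

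Within the group the range of H3K79me2 levels was wide, and a few genes stood inside the range of housekeeping genes, whose lowest member was at 1.82, 2.02 and 1.69 in D546R, D544R and WT. The 3 highest in WT in H3K79me2 were Irf2, Ifi35 and Trim25. Irf2, which binds the ISRE and can repress it, stood at 4.82, 3.48 and 3.41 in D546R, D544R and WT. Ifi35, an interferon-induced leucine zipper protein, stood at 2.36, 2.82 and 3.10, and Trim25, the ubiquitin ligase of the RIG-I pathway, at 5.18, 3.27 and 3.04. The lowest in WT in H3K79me2 was Isg15, the ubiquitin-like modifier, at 0.699, 0.824 and 0.301, resting on 5, 8 and 4 counts in a region of 3.39 kb. The OAS family, whose products include enzymes that make the oligoadenylate that activates RNase L, had H3K79me2 medians of 0.608, 0.606 and 0.596. Its H3K79me3 medians were 0.952, 0.912 and 0.736. In H3K79me3 the highest level in WT was that of Irf1, at 2.47, and the lowest that of Irf7, at 0 counts.

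Against the 50 silent genes, the H3K79me2 level was higher, with a fragment interval above theirs, at 10 of the 40 genes in D546R, 10 in D544R and 13 in WT (25%, 25% and 32.5%). The shares of all genes past the same rule were 28.1%, 32.2% and 31.8%. The same 8 genes, Adar, Ifi35, Irf1, Irf2, Irf3, Samhd1, Sp100 and Trim25, passed in all 3 libraries. In H3K79me3 the numbers were 5, 7 and 2 of 40, beside 10.4%, 18.3% and 17.7% of all genes, and Irf2 was the only one of the 40 to pass in all 3. The share of all genes that passed in all 3 libraries of a mark was not counted, so passing in all 3 has no background here. Genes with an ISRE had a median H3K79me2 level of 1.18, 1.09 and 0.989 in D546R, D544R and WT (n = 11), and those without had 1.47, 1.27 and 1.21 (n = 21). In H3K79me3 genes with an ISRE had 1.32, 1.16 and 0.838 and those without had 0.867, 1.01 and 1.08. The order was thus the other way round in D546R and D544R, and the same as in H3K79me2 in WT.

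**Figure D1:**
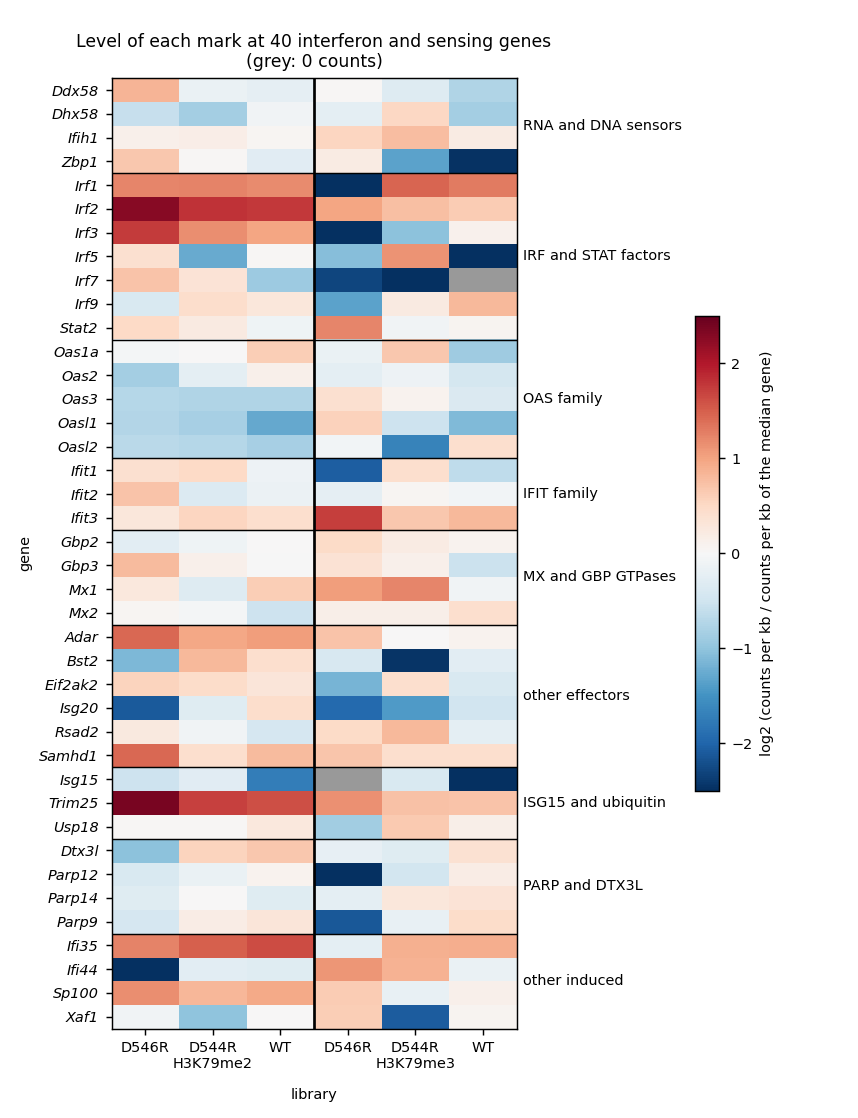
Level of H3K79me2 and H3K79me3 at the 40 genes in each library, as log2 of counts per kb over the median gene of that library, grouped by role; grey marks 0 counts, and values beyond the ends of the scale take its end colour. Irf2 and Trim25 were above 3 times the median gene in every H3K79me2 library, and most OAS genes were pale or blue in that mark.

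In D546R against WT, no interferon gene passed the rule for a lower or a higher H3K79me2 count, whereas the 13 fusion targets had a median log2 ratio of -1.62. A gene was counted as lower or higher if it differed at least 2-fold, if its counting interval excluded no change and if its mean normalised count over the 3 libraries of the mark was at least 100. Of the 10 interferon genes at that depth, 0 were lower and 0 higher in D546R against WT, beside 0.865% and 0.887% of all genes tested. The median log2 ratio over the 39 genes with a mean of at least 10 was 0.00, beside 0.01 for all genes, with 20 genes below 0 and 19 above. The median half-width of their fragment intervals was 1.28 on the log2 scale, so that a change under about that size was not detectable for a typical member.

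In H3K79me3 the same comparison gave 2 genes lower and 3 higher of the 20 deep enough, beside 8.92% lower and 6.94% higher among all genes tested. Parp9 and Parp12 were lower, and Stat2, Mx1 and Ifi44 were higher. With fragment intervals in place of counting intervals, Parp9 and Parp12 were still lower and Stat2 was the 1 gene higher, beside 5.55% and 4.26% of all genes. With the silent genes of other tissues as the reference, Ifi44 was the 1 gene higher, at 1.08, and Stat2 and Mx1 stood at 0.98 and 0.96. The median log2 ratio of 38 genes was 0.38, beside -0.01 for all genes, with 16 genes below 0 and 22 above. The silent genes had a higher median, 0.61, with 36 of 47 above 0. The median half-width of the fragment intervals was 1.80, wider than that median.

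**Figure D2:**
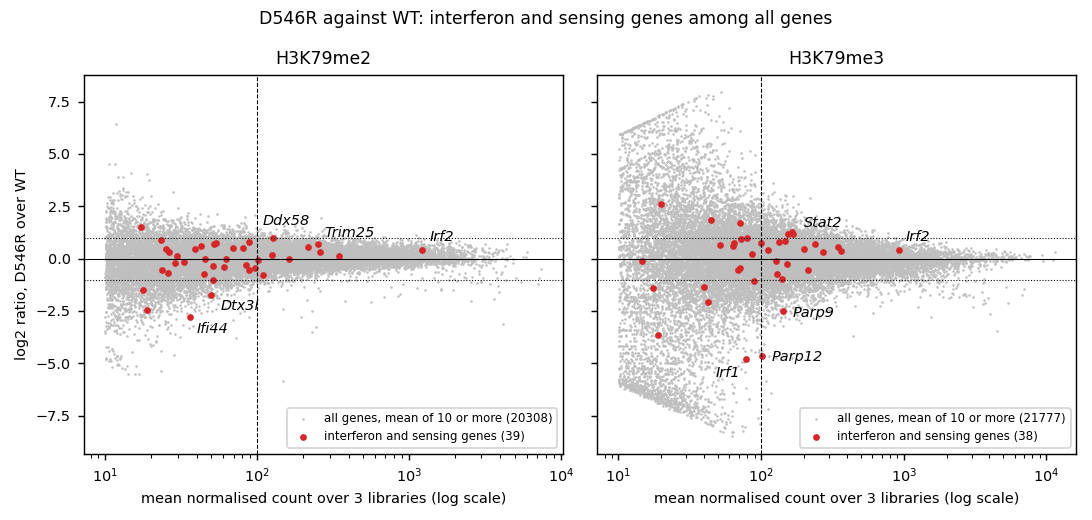
Log2 ratio of D546R over WT against the mean normalised count of each gene, in H3K79me2 and H3K79me3; grey points are all genes with a mean of at least 10 and red points the interferon and sensing genes. Dotted lines mark 2-fold and the dashed line a mean of 100; red points lie within the grey cloud in H3K79me2, and Parp12 and Parp9 lie low in H3K79me3.

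Among the sensors, Ddx58 encodes RIG-I and Ifih1 encodes MDA5, both cytoplasmic detectors of viral RNA. Ddx58 (chr4:40148810-40186858 in mm9) had 144, 97 and 127 counts of H3K79me2 in D546R, D544R and WT. Normalised, D546R was the highest library and D544R and WT were close, with a log2 ratio of 1.00 for D546R against WT (fragment interval 0.23 to 1.77), just under the 2-fold rule. In H3K79me3 Ddx58 had 219, 129 and 104 counts and a ratio of 0.82 (-0.50 to 2.17). Ifih1 had 120, 168 and 212 counts of H3K79me2, which gave 0.00 (-0.75 to 0.71), and 429, 377 and 280 of H3K79me3, which gave 0.36 (-0.49 to 1.21). The remaining sensors, Dhx58 (LGP2, a regulator of the other RNA sensors) and Zbp1 (a sensor of Z-form nucleic acid), had 16 to 69 and 6 to 47 counts. All 4 sensors were above 0 in H3K79me3 in D546R against WT, and all 4 in D544R against WT, comparisons that share the WT library. Of all genes 49.6% and 49.4% were above 0 in these comparisons, and of the silent genes 76.6% and 55.3%. None of the 4 passed the 2-fold rule.

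Irf2 was by far the best measured of the transcription factors. It had 1114, 1092 and 1463 counts of H3K79me2 in D546R, D544R and WT, and its log2 ratio of D546R against WT was 0.42 (0.18 to 0.67). In H3K79me3 it had 1235, 784 and 791 counts and a ratio of 0.39 (-0.10 to 0.88). The fragment interval in H3K79me2 lay above 0 and under 2-fold, so D546R was higher by more than counting error, and by less than 2-fold, in that library pair. Against D544R the D546R ratio of Irf2 was 0.38 (0.13 to 0.62), and D544R against WT gave 0.05 (-0.17 to 0.27).

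Stat2 (chr10:127705632-127729905), the STAT of the type I interferon complex, had 321 counts of H3K79me3 in D546R, 97 in D544R and 118 in WT. D546R thus stood apart from both other libraries, at 2.28-fold WT, a log2 ratio of 1.19 (0.05 to 2.38), and 1.30 (0.15 to 2.50) against D544R. In H3K79me2 the counts were 72, 81 and 88 and the ratio to WT was 0.53 (-0.52 to 1.54). The Stat2 region shares 1576 bases with that of Apof, and reads in the shared stretch count for both.

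Irf1, an activator of interferon genes with the GAS printed above, differed between the marks. Its H3K79me3 counts were 4 in D546R, 108 in D544R and 106 in WT, while its H3K79me2 counts were 46, 63 and 83. The H3K79me3 log2 ratio of D546R to WT was -4.82 with a fragment interval of -28.23 to -0.45, and the H3K79me2 ratio was -0.03 (-1.31 to 1.14). The 4 counts are fewer than the 18.6 reads estimated per fragment. The mean of 78.4 lies under the minimum of 100, so Irf1 was not counted as lower. Irf5 showed 27, 92 and 6 counts of H3K79me3, highest in D544R, and 28, 12 and 40 of H3K79me2, lowest in D544R.

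The last factors were too sparse in H3K79me3 to compare. Irf7, the master regulator of type I interferon production, had 18, 19 and 11 counts of H3K79me2 in D546R, D544R and WT but 6, 1 and 0 of H3K79me3. Its 6 counts in D546R are fewer than the 18.6 reads estimated per fragment there, so no ratio is given. Irf3, which is activated directly by sensing, had 51, 46 and 56 counts of H3K79me2 and 3, 15 and 36 of H3K79me3. Irf9, the DNA-binding partner of STAT2, had 13, 31 and 38 counts of H3K79me2 and 18, 40 and 65 of H3K79me3, with a ratio of -2.08 (-7.76 to 0.91) in the second mark. Regions of Irf3, Irf7 and Irf9 each overlap a neighbour by 1569 bases or more.

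The 4 genes of the PARP and DTX3L group were below 0 in both marks in D546R against WT. The group was singled out among 9 roles after its values were seen, and 2 of its genes share part of their region. Parp14, Dtx3l and Parp9 lie close together on chromosome 16, between 35830964 and 35972707. The 4 genes are therefore not 4 separate places in the genome. Of all genes, 9972 of 20308 were below 0 in H3K79me2 and 10967 of 21777 in H3K79me3. PARP9 and DTX3L form an ADP-ribosyltransferase and ubiquitin ligase pair, and PARP12 and PARP14 are further interferon-induced ADP-ribosyltransferases. The median log2 ratio of the 4 genes was -0.67 in H3K79me2 and -1.54 in H3K79me3. In D544R against WT, which uses the same WT library, the medians were -0.11 and -0.59.

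Parp12 (NM_172893, chr6:39034411-39068348) had 8 counts of H3K79me3 in D546R, 104 in D544R and 177 in WT. Normalised, these were 6.85, 119 and 180. D546R was lowest, at a log2 ratio to WT of -4.64 (-16.36 to -1.15), and -4.04 (-15.78 to -0.48) against D544R. The H3K79me2 counts, 55, 86 and 141, gave a much smaller ratio of -0.53 (-1.64 to 0.46). The 8 counts are fewer than the 18.6 reads estimated per fragment, so the size of the ratio is not well determined. Its mean H3K79me3 count of 102 reached the minimum through D544R and WT, and its region shares 1877 bases with that of 4930599N23Rik and 168 with that of Tbxas1.

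Parp9 (NM_030253, chr16:35936556-35972707) had 47 counts of H3K79me3 in D546R, 135 in D544R and 229 in WT, so that D546R was lowest and WT highest. D546R was 5.75-fold under WT, at -2.52 (-5.20 to -0.69), while D544R against WT gave -0.59 (-1.59 to 0.38). In H3K79me2 the counts were 57, 117 and 176 and the D546R ratio was -0.80 (-1.87 to 0.14), the lowest of the 10 deep genes in that mark. Dtx3l, its neighbour, had 15, 61 and 91 counts of H3K79me2 and a ratio of -1.74 (-4.10 to -0.08), but 71, 50 and 88 of H3K79me3 and -0.56 (-2.77 to 1.30). The Parp9 and Dtx3l regions share 2558 bases and are not independent. Parp14, close by at chr16:35830964-35871468, had 69, 117 and 128 counts of H3K79me2 with a ratio of -0.07. In H3K79me3 it had 193, 208 and 235 counts, with -0.53 (-1.74 to 0.57).

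**Figure D3:**
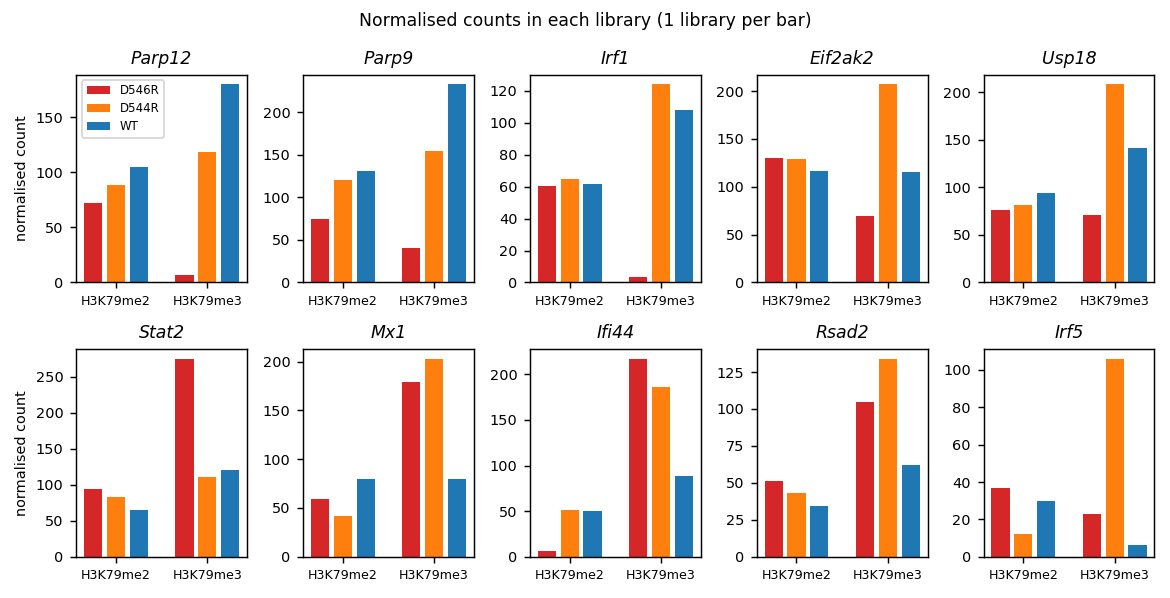
Normalised counts of 10 genes in each of the 6 libraries, with D546R in red, D544R in orange and WT in blue; each bar is 1 library and each panel starts at 0. Parp12 and Irf1 were near 0 only in D546R H3K79me3, and Stat2 was highest there, while the H3K79me2 bars of these 3 genes differed far less.

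The OAS family held no gene past the rule. Oas3, the only member with a mean of at least 100, had 198, 120 and 95 counts of H3K79me3 in D546R, D544R and WT and a D546R to WT ratio of 0.80 (-0.59 to 2.22). Oasl1 had 141, 49 and 36 counts, highest in D546R, at 1.70 (-0.25 to 4.01). Oasl2 had 93, 23 and 106, lowest in D544R, with a D544R to WT ratio of -2.01 (-4.60 to -0.07). In H3K79me2 the 5 genes had 21 to 92 counts in any library and ratios of D546R to WT between -1.04 and 0.46. These genes lie in 2 clusters of related copies, and reads that fit more than 1 copy could have been placed on another or dropped.

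The IFIT family, effectors that bind foreign RNA ends, had 1 member deep enough for the rule, Ifit2 in H3K79me3, which did not pass. Ifit1 had 31, 45 and 40 counts of H3K79me2 and 15, 63 and 33 of H3K79me3 in D546R, D544R and WT. The D546R to WT ratios were 0.46 (-1.24 to 2.03) and -1.36 (-8.14 to 2.31), both with a fragment interval across 0. The counting interval in H3K79me3, -2.38 to -0.47, lay below 0. Ifit3 had 140, 50 and 60 counts of H3K79me3, highest in D546R, at 0.96 (-0.77 to 2.78), and Ifit2 had 134, 122 and 122, at -0.12 (-1.67 to 1.32). Ifit genes are similar copies next to each other on chromosome 19, with the same limit on read placement.

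Of the GTPases, Mx1, which can block influenza virus in mice, was higher in both mutants in H3K79me3 by the counting interval, and in D544R alone by the fragment interval. It had 209 counts in D546R, 177 in D544R and 78 in WT, at log2 ratios to WT of 1.17 (-0.27 to 2.68) and 1.35 (0.13 to 2.73). The H3K79me2 counts were 45, 41 and 107, with ratios on the other side of 0, at -0.42 (-1.68 to 0.69) and -0.90 (-2.01 to 0.10). Both comparisons rest on the same WT library. Mx2 had 166, 126 and 165 counts of H3K79me3 and a D546R ratio of -0.24, Gbp2 had 153, 95 and 95 and 0.43, and Gbp3 had 106, 68 and 47 and 0.91, each with a fragment interval across 0.

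Among the other effectors, Adar, the RNA-editing enzyme that keeps self RNA from being sensed, had 230, 225 and 328 counts of H3K79me2 and 375, 172 and 197 of H3K79me3 in D546R, D544R and WT. Its D546R to WT ratios were 0.31 (-0.24 to 0.84) and 0.68 (-0.29 to 1.64). Samhd1, which depletes deoxynucleotides, had 226, 152 and 268 counts of H3K79me2, at 0.57 (0.00 to 1.13) against WT and 0.92 (0.31 to 1.54) against D544R, and 361, 225 and 244 of H3K79me3, at 0.31 (-0.62 to 1.23). In both genes D546R was the highest library after normalisation in both marks, by less than 2-fold.

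Eif2ak2, the kinase PKR, had 99, 125 and 156 counts of H3K79me2 and was close to WT after normalisation, at 0.16 (-0.68 to 0.97) for D546R against WT. In H3K79me3 it had 81, 180 and 113, with D544R highest. D546R against WT was -0.73 (-2.74 to 0.96) and D546R against D544R was -1.57 (-3.48 to -0.07). Rsad2 (viperin) had 123, 117 and 61 counts of H3K79me3, and both mutants were above WT, at 0.75 (-1.06 to 2.60) in D546R and 1.11 (-0.33 to 2.74) in D544R; the second passed with the counting interval only. Bst2 (tetherin) and Isg20, an exonuclease, had 43 counts or fewer in every library.

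Of the ISG15 group, Usp18, the protease that removes ISG15 and dampens the interferon receptor, had 83, 181 and 138 counts of H3K79me3 in D546R, D544R and WT. D546R was lowest, at -0.98 (-2.92 to 0.62) against WT, just short of 2-fold, and -1.54 (-3.42 to -0.05) against D544R. In H3K79me2 it had 58, 79 and 127 counts and a ratio to WT of -0.31 (-1.40 to 0.68). Trim25 had 250, 214 and 272 counts of H3K79me2, at 0.70 (0.15 to 1.24), and 284, 162 and 172 of H3K79me3, at 0.47 (-0.62 to 1.55). Isg15 had 0, 11 and 1 counts of H3K79me3 in D546R, D544R and WT. No ratio is given, since its highest count, 11, is close to the 8.12 reads estimated per fragment in D544R. Isg15 and Parp12 lie on the minus strand, where the counted regions extend 2 kb past the transcript end and leave out the promoters printed above.

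Ifi44, an interferon-induced microtubule-associated protein gene, had ratios of opposite sign in the 2 marks. It had 254, 162 and 87 counts of H3K79me3 in D546R, D544R and WT, at ratios to WT of 1.29 (-0.03 to 2.69) in D546R and 1.07 (-0.13 to 2.39) in D544R. In H3K79me2 it had 5, 50 and 67 counts, and D546R stood at -2.80 (-8.11 to -0.29). Sp100, a nuclear body protein, had 291, 310 and 465 counts of H3K79me2, at 0.14 (-0.33 to 0.60), and 540, 229 and 308 of H3K79me3, at 0.56 (-0.22 to 1.33). Ifi35 had 61, 99 and 149 counts of H3K79me2 and 59, 96 and 106 of H3K79me3, with ratios of -0.46 and -1.09 whose intervals crossed 0, and Xaf1 had 123, 14 and 68 of H3K79me3, lowest in D544R.

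**Figure D4:**
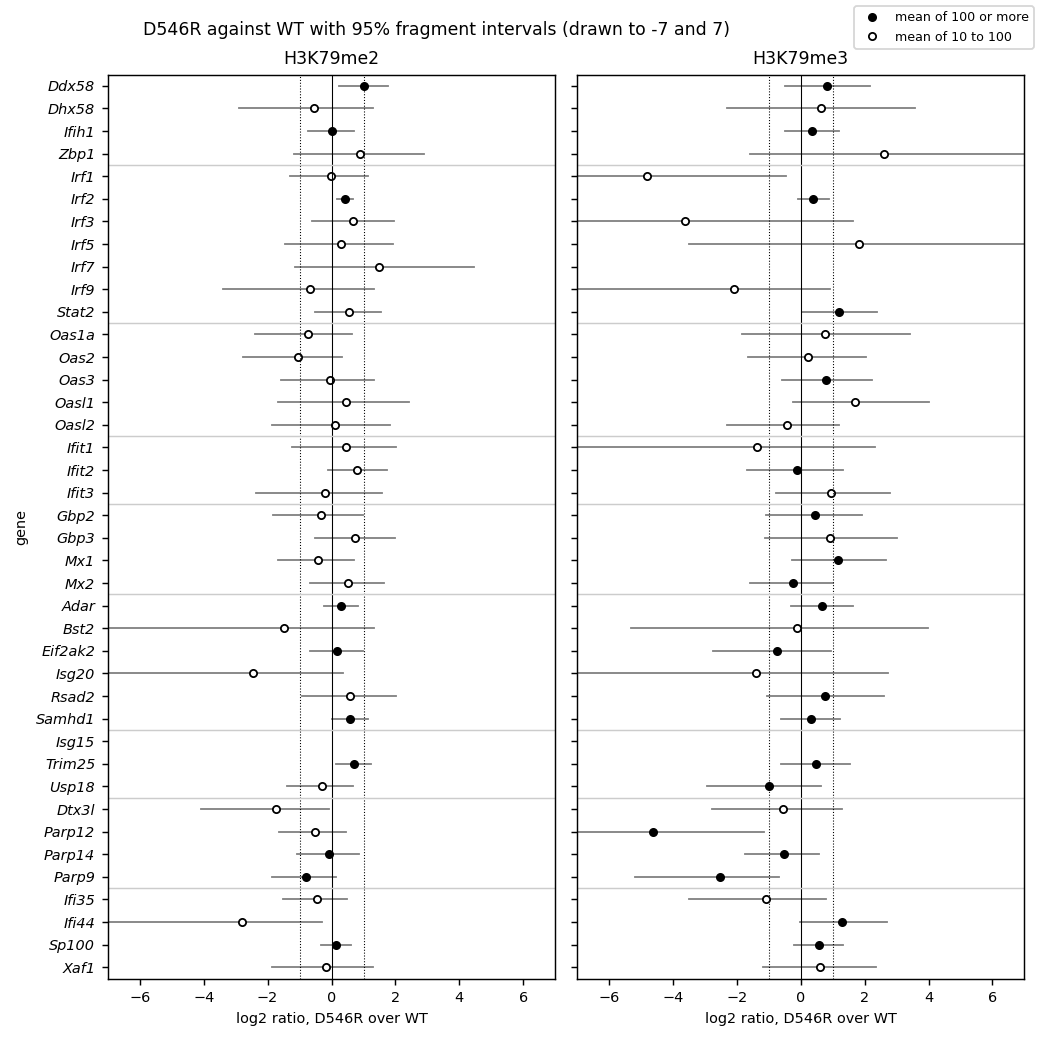
Log2 ratio of D546R over WT for each of the 40 genes, by role, in H3K79me2 and H3K79me3; lines are 95% fragment intervals, filled points have a mean of at least 100, open points 10 to 100, and genes under 10 or with 0 counts are left blank. Most intervals cross 0. In H3K79me3 those of Parp12, Parp9 and Irf1 lie below it and that of Stat2 above it, 4 of 38 genes, beside 2505 of 21777 among all genes. In H3K79me2 those of Dtx3l and Ifi44 lie below it and those of Ddx58, Irf2, Trim25 and Samhd1 above it, that of Samhd1 barely. These are 6 of 39 genes, beside 1894 of 20308.

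In D544R against WT the interferon genes were close to WT in H3K79me2, with 0 of 10 lower and 0 higher, beside 0.0112% and 0.0337% of all genes. Their median log2 ratio was 0.05, beside 0.00. In H3K79me3, 0 of 20 were lower and 3 (Mx1, Ifi44 and Rsad2) were higher, beside 3.02% and 4.36% of all genes, and with fragment intervals 0 were lower and 1 (Mx1) higher, beside 1.66% and 2.92%. The median was 0.17, beside -0.01.

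Setting the mutants against each other, D546R against D544R gave 0 of 10 lower and 0 higher in H3K79me2, beside 0.876% and 0.775%, with a median of -0.01. In H3K79me3, 4 of 20 were lower (Parp12, Parp9, Eif2ak2 and Usp18) and 1 was higher (Stat2), beside 8.31% and 5.77% of all genes. The same numbers, 4 and 1, passed with fragment intervals, beside 5.16% and 3.77%. The median over 38 genes was -0.07, beside -0.04 for all genes.

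A wider list of 90 other interferon pathway genes, among them receptors, kinases, adaptors and induced genes, had higher H3K79me2 than the 40 genes, with median levels of 1.35, 1.25 and 1.30 in D546R, D544R and WT. In H3K79me3 its medians were 0.904, 1.07 and 0.995, below those of the 40 genes in each library. In D546R against WT, 0 of 27 were lower and 3 higher in H3K79me2 (Slfn2 at 1.23, Lgals9 at 1.10 and the kinase gene Jak2 at 1.07), beside 0.865% and 0.887% of all genes. In H3K79me3, 7 of 37 were lower and 0 higher: Gbp7 at -2.78, Mb21d1 (the DNA sensor cGAS) at -2.11, Lgals9 at -1.90, Slfn5 at -1.47, Trim34a at -1.40, Pml at -1.32 and Tlr7 at -1.24, beside 8.92% and 6.94% of all genes. Lgals9 thus passed in opposite directions in the 2 marks. With fragment intervals 4 of the 7 were lower, beside 5.55% of all genes. The 14.7 kb region of Slfn5 shares 10580 bases with that of Slfn5os, and that of Pml shares 2105 with Mir6385. In D546R against D544R, 0 of 27 were lower and 1 higher in H3K79me2, beside 0.876% and 0.775% of all genes. In H3K79me3, 10 of 37 were lower and 0 higher, beside 8.31% and 5.77%. With fragment intervals 4 of the 37 were lower and 0 higher there, beside 5.16% and 3.77%.

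In D544R against WT, 0 of the 27 wider genes passed in either direction in H3K79me2, beside 0.0112% and 0.0337% of all genes. In H3K79me3, 2 of 37 were lower (Slfn2 at -1.31 and B2m at -1.04) and 2 higher (Irf4 at 1.71 and Iigp1 at 1.66), beside 3.02% and 4.36% of all genes. With fragment intervals 1 was lower and 2 higher, beside 1.66% and 2.92%. The 7.4 kb region of B2m shares 7396 bases with that of Patl2, and reads there count for both. The receptor genes Ifnar1 and Ifnar2 had H3K79me2 ratios of D546R to WT of -0.22 (-1.02 to 0.53) and 0.35 (-0.10 to 0.80), and the kinase Jak1 had 0.56 (0.36 to 0.75). Mavs, the adaptor of the RNA sensors, and Irf8, a myeloid factor, had H3K79me2 ratios of -0.79 (-2.75 to 0.77) and -0.70 (-2.38 to 0.69).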

How the data were processed

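The authors deposited 1 table of raw read counts per gene for 6 ChIP-seq libraries; per the file headers each region runs from 2 kb before the transcript start to its end, in mm9. The submitters' processing notes name Bowtie, bedtools and DESeq; what each did and its version are not given in the material used here, and the labels say that several runs were merged per library. Comparison with RefSeq gene ends placed the 2 kb extension on the low-coordinate side for both strands (3022 of 3148 opposite-strand neighbour pairs), so minus-strand genes lack their promoter.

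Counts were scaled by median-of-ratios size factors within each mark. Log2 ratios used a prior count of 0.5. Counting intervals were Clopper-Pearson at 95%. Fragment intervals divided counts by reads per fragment, estimated from the zeros of 4591 autosomal regions under 5 kb at 1 common density per kb. Medians used genes with a mean of at least 10. No test was possible with 1 library per group; shares over all genes are given beside counts, and lists matched on mean count were not drawn. The procedure was tested on simulated data. Ratios and counting intervals were checked on counts drawn without repeated reads, and the reads per fragment on regions of even density. Fragment intervals at uneven density were not checked. Levels relative to silent genes were added after seeing the data.

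The 40 genes and all lists were chosen with earlier results of these data known. Genes were named if they passed the 2-fold rule, were lowest or highest of a comparison, had 1 of the 3 highest levels in WT or were on a fixed list; others are given to complete each role, and 1 gene on the fixed list is not reported here. Alternatives were total counts, TMM factors (edgeR 4.0.16), size factors over all 6 libraries, silent genes as the reference, other count minimums, 1.5-fold, fragment intervals, a prior count of 5 and genes with no overlapping region. Analyses used Python 3.11.15, numpy 2.4.6, scipy 1.17.1, pandas 2.3.3 and R 4.3.3.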

Additional observations from a re-analysis of the deposited data

Results flagged for a closer look

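In 3 genes the 2 marks differed at least 2-fold in opposite directions under the same comparison; the difference between the marks was not tested. In D546R against WT the log2 ratio of Ifi44 was 1.29 in H3K79me3 and -2.80 in H3K79me2, a difference of 4.09, 1 of 38 interferon genes, while 2.75% of all genes were opposite in this way. In D544R against WT that of Irf5 was 4.00 in H3K79me3 and -1.23 in H3K79me2, a difference of 5.23 (0.575% of all genes). In D546R against D544R, the H3K79me3 ratio minus the H3K79me2 ratio was 3.82 for Bst2 (1.90 and -1.92) and -3.71 for Irf5 (-2.17 and 1.54), beside 2.45% of all genes opposite. Each rests on at least 1 library with 12 counts or fewer. For Bst2 the fragment intervals crossed 0 in both marks, and its 4 counts of H3K79me3 in D544R are fewer than the 8.12 reads estimated per fragment there.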

How the results depend on the processing

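No paired analysis was possible because each group had 1 library. No value turned in direction among the named genes called lower or higher. Under the other scalings the median log2 ratio of all genes lay between -0.23 and 0.06. Genes at least 2-fold apart could not turn with those shifts. Of 92 log2 ratios of named genes, 1 turned with a prior count of 5 and 1 with size factors over all 6 libraries. Of the 6 interferon gene medians, 2 turned with a mean of at least 100, 1 with that prior and 1 with those factors. With no filter on low counts, the numbers of interferon genes lower and higher were 5 and 1 (D546R against WT), 1 and 1 (D544R against WT) and 4 and 1 (D546R against D544R) in H3K79me2, and 8 and 6, 4 and 8, and 11 and 7 in H3K79me3, all of 40 genes. Of all 24012 genes, 8.18% and 4.86%, 1.52% and 2.68%, and 8.08% and 3.94% passed in H3K79me2, and 18.9% and 17.7%, 12.5% and 13.9%, and 19.6% and 16.3% in H3K79me3. At 1.5-fold they were 1 and 2, 0 and 0, and 1 and 2 of 10 in H3K79me2, and 4 and 7, 2 and 5, and 4 and 3 of 20 in H3K79me3. The shares of all genes at 1.5-fold were 4.26% and 8.89%, 0.517% and 0.853%, and 4.47% and 8.02% in H3K79me2, and 19.8% and 16.8%, 11.5% and 12.5%, and 19.0% and 15.3% in H3K79me3. With a mean of at least 300 every count was 0. With genes that overlap no other region, 0 were lower in D546R against WT in H3K79me3, since Parp9 and Parp12 both overlap, and against D544R 1 was lower and 0 higher. Fragment intervals left 1 higher in D546R against WT and 1 higher in D544R against WT in H3K79me3. With silent genes as the reference, which shifts all genes by -0.22 in D546R against WT in H3K79me3, 1 gene was higher there, Usp18 reached -1.19, and Irf2 stood at 0.19 against WT and 0.05 against D544R. Size factors over all 6 libraries put 1 gene, Ddx58, past 2-fold in H3K79me2 in D546R against WT. The median of D546R against D544R in H3K79me2 was 0.32 over genes with a mean of at least 100. Total counts and TMM factors moved no count by over 1.5 times. Apart from fewer or more genes tested, the cause was not tested. The median count of the 40 genes was 42.0 in D546R H3K79me2 and 104.5 in D546R H3K79me3, which limits what could be seen.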
